A study of Mus musculus with 18 samples.

Results

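The genes described here are 10 imprinted mouse genes whose loci carry a germline control region that is methylated on the copy inherited from the mother: Peg10, Peg13, Inpp5f, Zrsr1, Kcnq1ot1, Mest, Peg3, Nnat, Mcts2 and Nap1l5. They were taken by name from the 49943 genes of the reference table that lie on chromosomes with peaks, and each was examined over its span in GRCm38 plus 5000 bases on each side. DNA methylation had been profiled by methylated DNA immunoprecipitation sequencing (MeDIP-seq), in which an antibody to 5-methylcytosine enriches methylated DNA fragments before sequencing. The 18 libraries came from 12-week-old male C57BL/6JR mice, 3 mice in each of 6 groups. In the myocardial infarction (MI) groups the left anterior descending coronary artery had been tied between 10 min and 72 h before the heart was taken (the intermediate times were 1 h, then 6 h, then 24 h), and in the sham group (labelled control and 0 h) a suture was passed but not tied. All mice had pentobarbital for surgery and isoflurane before death. Per the labels the samples are myocardial tissue, with Cardiomyocytes entered as their cell type; no isolation of cells is described, so a change in the mix of cells and a change within cells cannot be told apart in these lists.

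An imprinted gene is expressed from the copy of 1 parent, and the mark that distinguishes the copies is DNA methylation laid down at a control region in the egg or sperm. At the loci examined here the mark is set in the egg, survives the erasure of methylation in the early embryo with the help of the zinc finger protein ZFP57, and is then carried in body tissues on the maternal copy, while the paternal copy of the same CpG-rich sequence stays unmethylated. The heart is among the tissues that carry it. A peak list does not separate the parental copies, and it gives no percentage of methylated molecules.

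Starts of 8 of the 10 genes were found in the promoter table (RefSeq, GRCm38.p6), which holds 250 bases before and 50 bases after each start. Peg10 and Peg13 have no entry there. The windows below are printed 5′ to 3′ in the direction of the gene, with every CpG in capitals. The first 4 are the windows that touched their gene's most widely called region, and the last pair, Peg3 and Nap1l5, was added after the values were seen because their starts were called in 8 and 0 libraries.

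Zrsr1, chr11:22971755-22972054, plus strand, under a peak in 18 of 18 libraries: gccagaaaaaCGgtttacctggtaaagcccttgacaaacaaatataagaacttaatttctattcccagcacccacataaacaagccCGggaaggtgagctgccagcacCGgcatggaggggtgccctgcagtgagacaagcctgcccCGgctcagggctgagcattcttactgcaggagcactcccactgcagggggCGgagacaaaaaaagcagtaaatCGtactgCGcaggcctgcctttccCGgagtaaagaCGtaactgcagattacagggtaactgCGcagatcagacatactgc
Kcnq1ot1, chr7:143296498-143296797, minus strand, under a peak in 16 of 18 libraries: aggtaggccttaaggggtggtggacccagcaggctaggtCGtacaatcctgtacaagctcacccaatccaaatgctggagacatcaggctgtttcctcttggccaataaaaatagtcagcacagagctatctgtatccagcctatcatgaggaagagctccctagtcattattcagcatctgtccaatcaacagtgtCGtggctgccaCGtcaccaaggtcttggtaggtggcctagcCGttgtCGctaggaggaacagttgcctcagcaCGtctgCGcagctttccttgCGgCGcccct
Mcts2, chr2:152686898-152687197, plus strand, under a peak in 4 of 18 libraries: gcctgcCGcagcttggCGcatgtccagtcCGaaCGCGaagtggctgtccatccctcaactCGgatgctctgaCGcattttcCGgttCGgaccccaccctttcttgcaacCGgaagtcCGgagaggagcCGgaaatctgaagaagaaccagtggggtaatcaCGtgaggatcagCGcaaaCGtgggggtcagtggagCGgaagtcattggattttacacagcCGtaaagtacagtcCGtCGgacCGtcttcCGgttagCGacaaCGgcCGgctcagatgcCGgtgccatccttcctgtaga
Mest, first listed start, chr6:30733256-30733555, plus strand, under a peak in 2 of 18 libraries: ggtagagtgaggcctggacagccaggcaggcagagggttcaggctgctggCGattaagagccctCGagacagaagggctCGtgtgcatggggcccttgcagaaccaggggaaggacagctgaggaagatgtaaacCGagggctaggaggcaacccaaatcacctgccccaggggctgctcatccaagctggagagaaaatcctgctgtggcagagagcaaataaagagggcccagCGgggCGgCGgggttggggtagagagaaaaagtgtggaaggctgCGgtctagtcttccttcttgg
Peg3, chr7:6730370-6730669, minus strand, under a peak in 8 of 18 libraries: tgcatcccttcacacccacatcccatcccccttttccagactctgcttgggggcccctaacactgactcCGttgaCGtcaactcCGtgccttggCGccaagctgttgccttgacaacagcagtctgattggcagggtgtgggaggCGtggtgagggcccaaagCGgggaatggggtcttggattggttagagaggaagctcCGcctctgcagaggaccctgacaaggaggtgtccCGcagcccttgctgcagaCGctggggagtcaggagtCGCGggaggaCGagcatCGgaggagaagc
Nap1l5, chr6:58907077-58907376, minus strand, under a peak in 0 of 18 libraries: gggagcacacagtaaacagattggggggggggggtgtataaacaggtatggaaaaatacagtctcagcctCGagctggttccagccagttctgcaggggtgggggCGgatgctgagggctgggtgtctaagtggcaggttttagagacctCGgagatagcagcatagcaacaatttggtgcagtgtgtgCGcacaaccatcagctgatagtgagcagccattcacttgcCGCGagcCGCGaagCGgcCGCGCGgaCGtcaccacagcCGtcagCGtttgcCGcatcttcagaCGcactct

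The number of CpG sites in these windows did not follow the number of libraries. Zrsr1 had 10 CpG sites and Kcnq1ot1 had 9, while Mcts2 had 25 and Nap1l5 had 17. Peg3 had 13 and the first Mest start had 8. Among the starts not printed, that of Nnat had 17 CpG sites and a peak in 2 libraries, that of Inpp5f had 15 and a peak in 0, and the other listed Mest starts, which overlap each other, had 17 and a peak in 0. Over all 32851 promoter windows, a peak in at least 1 library was found in 8.93%, in at least 9 libraries in 2.06% and in all 18 libraries in 0.323%. Of the 8 imprinted genes with a listed start, 6 had a peak on it in at least 1 library, 2 in at least 9 (Zrsr1 and Kcnq1ot1) and 1 in all 18 (Zrsr1). CpG-rich promoters were seldom under a peak in these lists: the share with a peak in any library was 20.2% of windows with 5 to 9 CpG sites, 14.8% with 10 to 14, 5.34% with 15 to 19 and 1.08% with 25 to 29. Zrsr1, Kcnq1ot1, Peg3 and the first Mest start lie in the 2 classes with the highest shares, and Mcts2 was under a peak in 4 libraries in a class where 1.08% of windows had any.

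**Figure D1:**
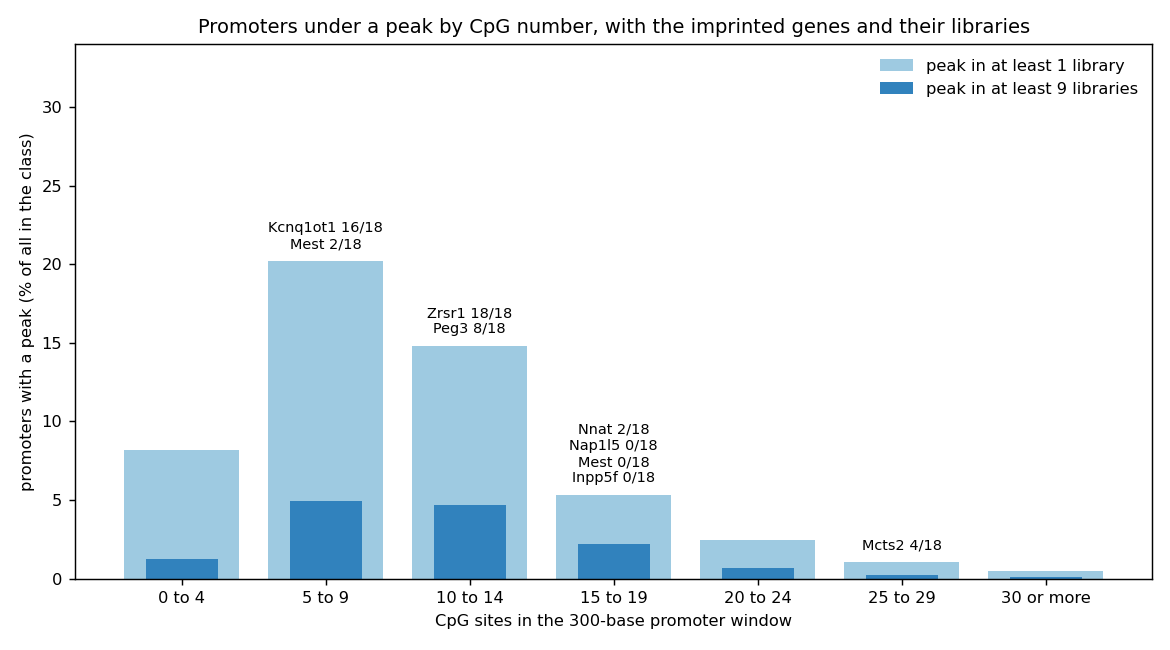
Share of all promoter windows under a peak (vertical axis, percent) by the number of CpG sites in the window (horizontal axis), in at least 1 library (light bars) and in at least 9 libraries (dark bars). The imprinted genes are written above the class of their window with the number of libraries of 18 that had a peak there, and the genes called most widely, Zrsr1 and Kcnq1ot1, stand over the classes of 5 to 14 CpG sites.

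The core of the ZFP57 motif, TGCCGC, was searched on both strands of the same windows. It was present at the starts of 4 of the 8 genes: Mcts2 and Nnat held it 1 time, and Nap1l5 and the later Mest starts held it 2 times. Zrsr1, Kcnq1ot1, Peg3, Inpp5f and the first Mest start did not hold these letters in the window. Of all promoter windows 11.6% held the motif. The share was 16.5% of windows with 15 to 19 CpG sites and 25.5% with 25 to 29, the classes of the motif-bearing starts. Mest was counted through any of its listed starts, while the shares are of single windows. The 4 genes that held it were called at the motif-bearing start in 4, 2, 0 and 0 libraries.

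Peaks of the 18 lists that overlapped by at least 1 base were merged into 152196 regions, and 30 of these touched a window of the 10 genes. The 229 peaks in these regions were spread unevenly. Of the 30 regions, 2 were called in all 18 libraries, 6 in at least 16, 10 in at least 9, and 13 in 3 or fewer. Over all merged regions, 5.09% were called in all 18 libraries, 9.2% in at least 16 and 25.2% in at least 9. All 10 genes had a region in their window, against 76% of the 36969 genes with windows in the same range of lengths. A region called in at least 16 libraries lay in the windows of 5 genes (Zrsr1, Inpp5f, Kcnq1ot1, Peg10 and Peg13), against 15.4% of those genes, and one called in all 18 lay in 2 (Zrsr1 and Inpp5f), against 8.16%. The lists held 34255 to 60653 peaks and covered 42.7 to 63 Mb, and no pair of libraries shared more than 0.462 of their regions (Jaccard index), so no library was a copy of another.

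**Figure D2:**
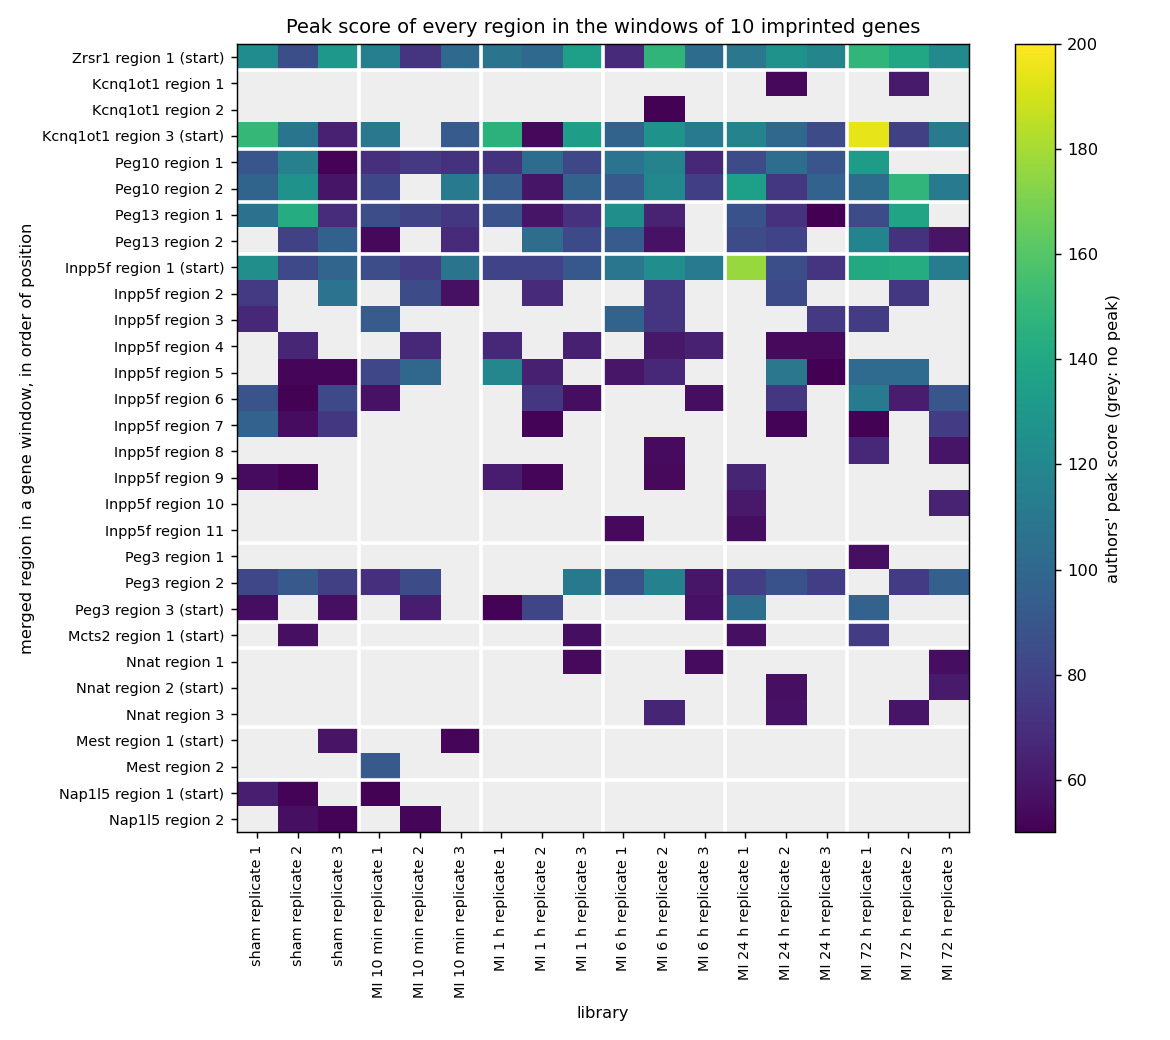
The authors' peak score (colour, 50 to 200) of each of the 30 regions (rows, numbered by position within a gene's window) in each of the 18 libraries (columns), with grey for no peak. Filled rows at Zrsr1, Inpp5f, Kcnq1ot1, Peg10 and Peg13 contrast with the mostly grey rows of Mcts2, Nnat, Mest and Nap1l5.

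Each peak carries a score written by the authors' peak caller, with a minimum of 50 in every list. Scores were used to describe peaks and to rank them within a list, because they were not put on a common scale between libraries. The list percentile given below is the place of a peak's score within its own list, from 0 for the weakest to 100 for the strongest.

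The noncoding RNA genes come first. Kcnq1ot1 is transcribed from the paternal copy, antisense to the potassium channel gene Kcnq1 in which it lies, and silences its neighbours on that copy. Its start was covered by the region chr7:143294589-143297203, called in 17 of 18 libraries with a median score of 110 and a median list percentile of 83.5. In 1 h replicate 2 the peak, 143294921-143295921, lay inside the gene and did not reach the start. The sham scores were 150, 108 and 63.7. At 10 min 2 libraries had scores of 110 and 93 and replicate 2 had no peak, and at 1 h the scores were 146, 53.1 and 134. At 6 h they were 97.5, 127 and 113. At 24 h they were 117, 100.2 and 84.6, and at 72 h 194, 78.6 and 112. High and low scores occurred in sham and in MI, and every MI group that had a peak in all 3 libraries overlapped the sham range. The library without the peak, 10 min replicate 2, had the second shortest list, with 37084 peaks. The other Kcnq1ot1 regions, at 143264629-143265619 and 143288235-143289213 inside the gene, were called in 2 libraries and 1 library, all of them MI.

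Peg13 is a paternally expressed noncoding RNA gene within Trappc9, a gene of the vesicle-tethering TRAPP machinery. Its most widely called region, chr15:72808515-72811092, crossed the higher-coordinate end of the gene and was called in 16 libraries with a median score of 83. The sham scores were 106, 143 and 68.9. At 10 min they were 85.2, 80.9 and 74.3, and at 1 h 88.7, 58.7 and 71.3. In the 6 h group 2 libraries had scores of 125 and 64.8, at 24 h the 3 scores were 88, 71.4 and 50.1, and at 72 h 2 libraries had 85.1 and 138. The libraries without a peak were 6 h replicate 3, which had the shortest list of all, and 72 h replicate 3. High and low scores occurred in both sham and MI. A second region, 72814852-72816604, lay across the edge of the window, mostly outside it, and was called in 13 libraries, with 2 of 3 in sham and in every MI group but 72 h, where it was called in 3 of 3.

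Next are the genes that sit inside another gene. Zrsr1, a retrotransposed gene for an RNA-binding protein related to splicing factors, lies within Commd1. The region chr11:22971396-22974435 covered its start and was the only region in its window. All 18 libraries had a peak there, with a median score of 116 and a median list percentile of 86.9. The sham scores were 123, 86.1 (the higher of a pair of separate peaks in replicate 2) and 130. At 10 min they were 115, 72.6 and 101, and at 1 h 108, 101 and 135. At 6 h they were 68.3, 148 and 103. At 24 h they were 109, 127 and 118, and at 72 h 149, 140 and 122. High and low scores occurred in both sham and MI, and the comparison by rank within each library is given below. The median over all regions called in 18 libraries was 119, so Zrsr1 had a middling score for such a region.

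Mcts2, Nnat and Nap1l5 also lie inside or beside a host gene, and their peaks were few and weak. Mcts2 is a retrotransposed relative of the translation factor gene Mcts1 and lies in H13. The single region of its window, chr2:152686176-152687976, covered the gene and was called in 4 libraries. The scores were 55.9 in sham replicate 2, 55.4 in 1 h replicate 3, 56.1 in 24 h replicate 1 and 76 in 72 h replicate 1. Most libraries of sham and of every MI group had no peak at Mcts2. Nnat encodes neuronatin, a small membrane protein known from brain and from endocrine cells, and lies within Blcap. Its start region, chr2:157559177-157561166, was called in 24 h replicate 2 (score 56.2) and 72 h replicate 3 (61.1) and in no sham library. A region before the start, 157556703-157558268, and one past the gene, 157567413-157568586, were each called in 3 MI libraries and no sham library, with scores between 54.1 and 65.6. Nap1l5, of the nucleosome assembly protein family, lies within Herc3. Its gene-body region, chr6:58905888-58907053, was called in sham replicates 1 and 2 (62.9 and 51.3) and in 10 min replicate 1 (50.8). A region upstream, 58909931-58910828, was called in sham replicates 2 and 3 (55.9 and 51.3) and in 10 min replicate 2 (52.3). At Nap1l5 no library from 1 h to 72 h had a peak, and 5 of the 6 peaks scored below 56, close to the minimum of 50. A two-sided exact permutation test of presence in 15 MI against 3 sham libraries gave p = 0.0564 for each of the Nap1l5 regions, with an adjusted p of 1 over all merged regions.

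Peg10 and Peg3 are paternally expressed protein-coding genes. Peg10 derives from a retrotransposon, encodes proteins related to Gag and Pol, and is needed for the placenta. A pair of Peg10 regions was called widely. The first, chr6:4747168-4749350, covered the lower-coordinate end of the gene, next to Sgce, the side on which Peg10 is known to start, and was called in 16 libraries with a median score of 87.5. The sham scores were 90.2, 115 and 51.3. At 10 min they were 70.8, 75 and 71.7, at 1 h 71.7, 103 and 82.4, and at 6 h 107, 117 and 67. The 24 h scores were 84.7, 104 and 90.3. At 72 h replicate 1 had a score of 133, the highest of all, and replicates 2 and 3 had no peak. Those replicates without a peak had lists of 60653 peaks, the longest of all, and 48608 peaks. The second region, 4754062-4757914, lay inside the gene and was called in 17 libraries, all but 10 min replicate 2, with a median score of 97.7. Its scores ran from 58.7 to 127 in sham and from 58.4 to 149 in MI. In 1 h replicate 2 the peak in this region started at 4756516 and overlapped the peak of 6 h replicate 1 alone, which ended at 4756564. In 72 h replicates 2 and 3, without a peak in the first region, the second had scores of 149 and 111.

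Peg3 encodes a zinc finger protein known for its part in growth and maternal behaviour. Its widely called region was not at the start but inside the gene, at chr7:6710040-6712130, 18289 bases from the start. It was called in 14 libraries with a median score of 83.2. The sham scores were 82.2, 91.6 and 78.6. At 10 min 2 libraries had 70.3 and 84.3, at 1 h only replicate 3 had a peak (111), and at 6 h the scores were 87, 116 and 59.3. At 24 h they were 77.9, 87.7 and 77.1, and at 72 h 2 libraries had 76.7 and 95.8. The 3 sham scores lay close together. The start region, 6729251-6731529, which also covers the start of the neighbouring Usp29, was called in 8 libraries. Its scores were 55.3 and 56.1 in sham, 61.4 at 10 min, and 51.5 and 81.5 at 1 h. The 6 h library had 57.2, the 24 h library 104 and the 72 h library 97.2. Most of these lay near the minimum, and no group had a peak in all 3 libraries. A further region, 6707470-6709168, was called in 72 h replicate 1 alone.

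**Figure D3:**
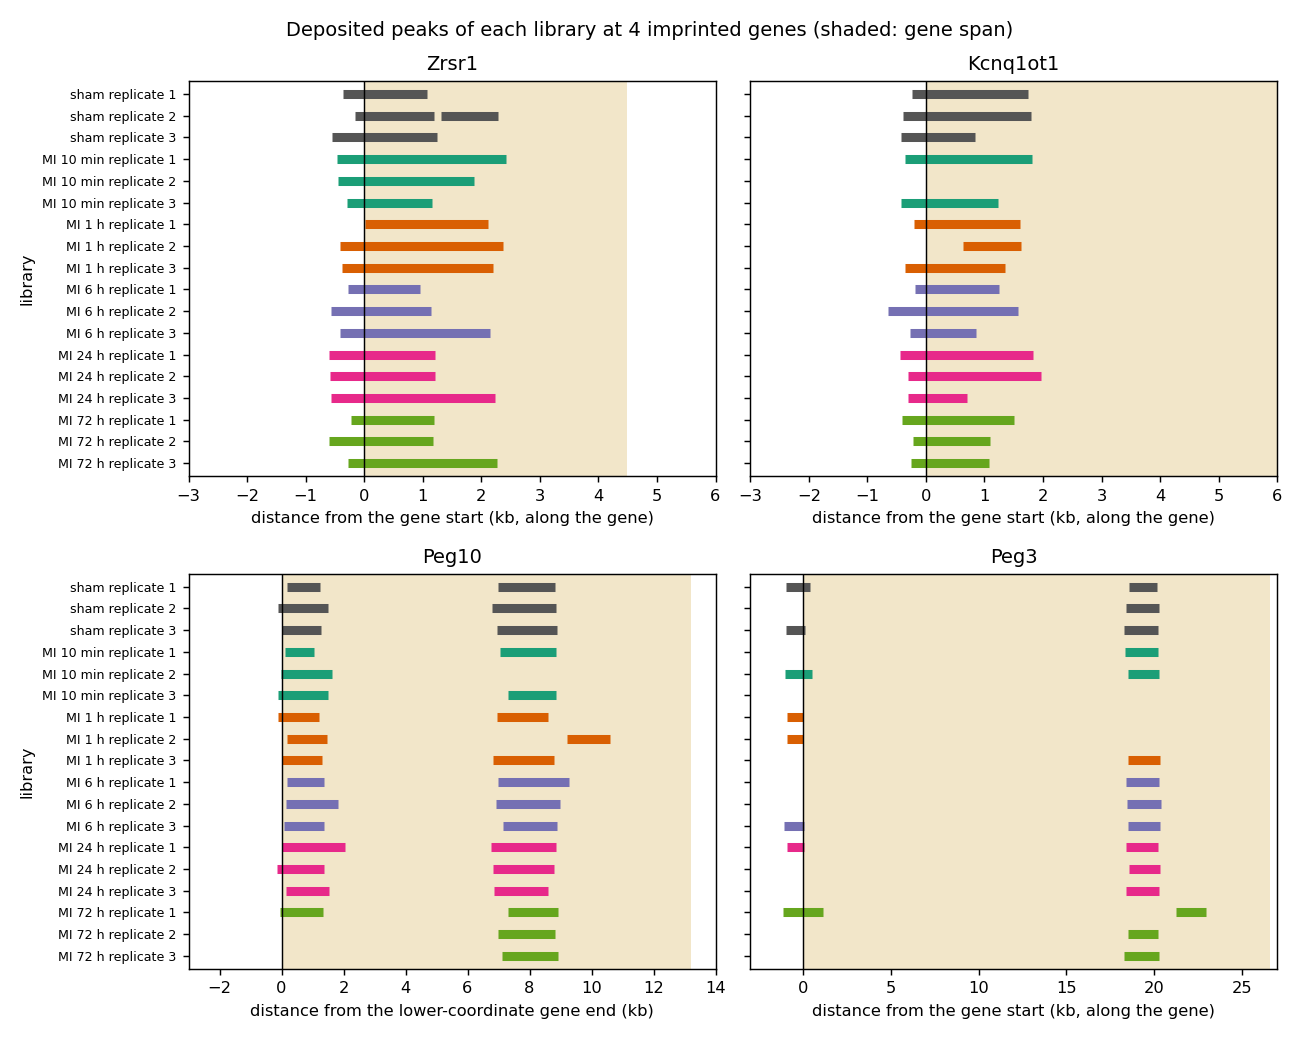
Deposited peaks at and near the starts of Zrsr1 and Kcnq1ot1 and over the whole of Peg10 and Peg3 (bars, coloured by group, 1 line for each library), against distance in kb from the gene start or, for Peg10, from the lower-coordinate gene end, with the gene span shaded. Most peaks of sham and MI libraries line up, across the start at Zrsr1 and Kcnq1ot1 and inside the gene at Peg3. At Peg3 72 h replicate 1 alone has a peak further into the gene, at Peg10 that of 1 h replicate 2 is displaced, and the Peg10 region next to Sgce is empty in 72 h replicates 2 and 3.

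Mest and Inpp5f encode enzymes or enzyme-like proteins. Mest, expressed in mesoderm and encoding a protein of the hydrolase fold, had a region at its first listed start, chr6:30732916-30734609. It was called in sham replicate 3 (57.7) and 10 min replicate 3 (52.7) and in no other library. A region inside the gene, 30743791-30744430, was called in 10 min replicate 1 alone (91.7). The CpG-rich later starts of Mest had no peak in any library.

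Inpp5f encodes a phosphoinositide phosphatase, and the imprinted transcript of the locus begins inside the gene; the position of that internal start was not used here. The region chr7:128608064-128610595 was called in all 18 libraries. It lay 770 bases upstream of the listed start, outside the gene. The sham scores were 124, 82.9 (the higher of a pair of peaks in replicate 2) and 99.2. At 10 min they were 85.5, 77.4 and 108, at 1 h 79.9, 79.9 and 91.3, and at 6 h 109, 124 and 111. The 24 h scores were 177, 86 and 73, and those at 72 h were 141, 143 and 113. The highest and the lowest of these scores were both in the 24 h group.

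Inside the Inpp5f gene 10 further regions were called in 2 to 12 libraries. The widest called were 128658921-128660601, with 12 libraries and 2 in every group, and 128667714-128669471, with 11 libraries, among them all 3 of sham and all 3 of 72 h. The region 128677379-128678406 was called in all 3 sham libraries with scores of 97.2, 55.2 and 74.3. It was called in 4 MI libraries: 1 h replicate 2 (51.3), 24 h replicate 2 (51.7) and 72 h replicates 1 and 3 (51.1 and 75.9). No library at 10 min or 6 h had it, and 3 of the 4 MI peaks lay close to the minimum score.

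The widely called regions of these genes had broad peaks. Of the 7 regions called in at least 14 libraries, 6 had a median peak width above 1408 bases, the upper quartile of the 19904 regions called that widely, whose median was 1123 bases. The median widths were 2110 bases at Inpp5f, 1853 at the Peg10 region inside the gene, 1847 at Peg3, 1811 at Zrsr1, 1809 at Peg13 and 1715 at Kcnq1ot1. The Peg10 region next to Sgce was the exception with 1342 bases. Among all regions called in at least 14 libraries, 8.85% were as wide as the Inpp5f region and 29.2% as wide as the Peg10 region next to Sgce. The peak at Peg3 was also placed alike in every library that had it, with an SD of the midpoint of 58.9 bases over 14 libraries, against a median of 102 bases for all such regions. The SD was above the upper quartile of 160 bases at 5 of the 7 regions: 497 bases at the Peg10 region inside the gene, 296 at Zrsr1, 254 at Inpp5f, 240 at Kcnq1ot1 and 199 at Peg13. At that Peg10 region the SD includes the displaced peak of 1 h replicate 2, which started at 4756516. The SD without it was not computed. These shapes are descriptions of the lists, with no test.

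The next comparison asked whether peaks at these genes were gained or lost after infarction. The positions of the germline control regions were not used here, so the regions are any peaks in the gene windows and are not known to be the imprint mark itself. A region was called lost at a time point when all 3 sham libraries and 0 of 3 MI libraries had a peak, and gained in the opposite case. All 5 time points were compared with the same 3 sham libraries. Of the 30 regions at the 10 genes, 1 was lost at 10 min and 1 at 6 h, and both times it was Inpp5f 128677379-128678406. Over all merged regions 0.624% were lost at 10 min and 0.706% at 6 h. None of the 30 was lost at 1 h, 24 h or 72 h, where 0.553%, 0.524% and 0.397% of all regions were, and none was gained at any time, where the share of all regions was 0.216%, 0.225%, 0.201%, 0.393% and 0.719% in order of time. Among 30 regions, shares of this size amount to less than 1 region. With peaks of a score of at least 100, with equal numbers of top-scoring peaks from each library, or with at least 50% of a region required to be covered, the count of lost regions at 10 min and at 6 h was 0.

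For MI as a whole, a gain needed a peak in at least 12 of 15 MI libraries and 0 of 3 sham, and a loss at most 3 of 15 MI and 3 of 3 sham. No region of the 10 genes met either rule, against 0.0375% gained and 0.252% lost over all regions. The exact permutation test of presence gave an unadjusted p of 0.0429 for the Inpp5f region 128677379-128678406, called in 3 of 3 sham and 4 of 15 MI libraries, and an adjusted p of 1. Over all regions 0.858% had an unadjusted p under 0.05 in this test and 0 had an adjusted p under 0.05. The regions of Zrsr1 and Inpp5f upstream of or at the start were present in every library of every group. Those of Kcnq1ot1, Peg10 (both) and Peg13 were present in all 3 sham libraries and in 14, 13, 14 and 13 of 15 MI libraries, in the order Kcnq1ot1, Peg10 next to Sgce, Peg10 gene body, Peg13.

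Each library has 1 value for how many of the 10 genes had a peak in their lead region, the region of the window called in the most libraries. The sham values were 6, 8 and 8, with a mean of 7.33 ± 1.16 (SD, n = 3). At 10 min they were 6, 5 and 6, at 1 h 5, 5 and 7, and at 6 h 6, 7 and 5. At 24 h they were 7, 7 and 6, and at 72 h 6, 7 and 5. The mean over MI was 6 ± 0.845 (SD, n = 15). The groups overlapped, since sham replicate 1 stood at the level of the MI libraries. No such count was made over all genes, so a share to set beside these values is missing. The difference of -1.33 genes gave p = 0.0503 in a two-sided exact permutation test over 18 libraries and an adjusted p of 0.302 over the 6 comparisons. Without sham replicate 1 the difference was -2 genes (exact p = 0.00735). Without sham replicate 2, or without sham replicate 3, it was -1 (exact p = 0.228). Without any 1 of 1 h replicate 3, 6 h replicate 2, 24 h replicate 1, 24 h replicate 2 or 72 h replicate 2 it was -1.41 (exact p = 0.0471). With equal numbers of top-scoring peaks from each library the difference was -0.533 genes (exact p = 0.442). With 3 against 3 libraries no p below 0.1 is possible, and the single times gave exact p between 0.2 and 0.6. Weak peaks enter this count. The Nap1l5 lead region, with scores of 51.3 to 55.9, was called in 2 of 3 sham and 1 of 15 MI libraries. That of Nnat went the other way, with 0 of 3 sham and 3 of 15 MI libraries.

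When the region at or nearest to the gene start was counted in place of the lead region, for the 8 genes with a listed start, each of the 3 sham libraries had 5 genes with a peak. The MI libraries had 3 to 5, with a mean of 3.8 ± 0.676 (SD, n = 15), and 24 h replicate 1 and 72 h replicate 1 were at 5. The exact permutation p was 0.0245, and 0.147 when adjusted over 6 comparisons. The same count was not made over all genes with a listed start. Over all merged regions, 0.252% were lost and 0.0375% gained for MI against sham by the rules above. Those rules need 3 of 3 or 0 of 3 sham libraries, so these shares are a different measure and no reference for this count. Inpp5f and Zrsr1 were present in all libraries, and Kcnq1ot1 in all but 1. The difference lay mainly in the region of the Nap1l5 gene body, 73 bases from the start and not on the printed window (2 of 3 sham, 1 of 15 MI), and in the start regions of Peg3 (2 of 3, 6 of 15) and Mest (1 of 3, 1 of 15), whose sham scores were 51.3 to 62.9. With equal numbers of top-scoring peaks from each library the means were 3.33 genes in both arms, a difference of 0 (exact p = 1). With a score of at least 100 the mean was 2.07 in MI and 1.67 in sham (exact p = 0.76). With at least 50% of the region required to be covered, the difference stayed, at 2.73 in MI and 4 in sham (-1.27, exact p = 0.0882).

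**Figure D4:**
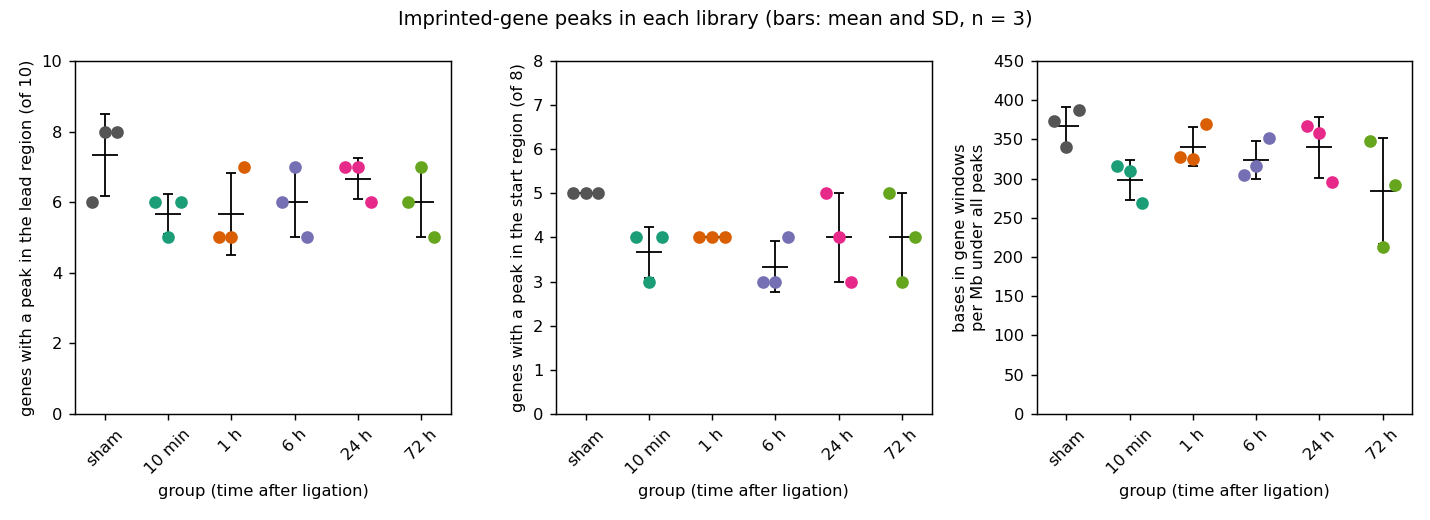
For each library (points) and group (horizontal axis; bars give mean and SD, n = 3): the number of the 10 genes with a peak in their lead region, the number of the 8 genes with a peak in their start region, and the bases under peaks in the gene windows per Mb under all peaks of the library. Sham libraries stand at 5 genes in the middle panel and MI libraries at 3 to 5, and 72 h replicate 2 is the lowest point of the right panel at 213.

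The length under peaks in the 10 windows was divided by the length under all peaks of the library, since longer lists cover more. The sham libraries had 374, 341 and 388 bases per Mb, with a mean of 367 ± 24.3 (SD, n = 3), from 19960 bases in the windows on average. The MI libraries had a mean of 318 ± 41 (SD, n = 15), from 16020 bases on average. The lowest value was 213 in 72 h replicate 2, which had the longest list, and the highest was 369 in 1 h replicate 3. Sham and MI overlapped, and the difference of -49.8 bases per Mb gave an exact permutation p of 0.065 (adjusted p = 0.24 over 6 comparisons). Without 72 h replicate 2 it was -42.3 (exact p = 0.0441), without sham replicate 1 it was -46.7 (exact p = 0.14) and without sham replicate 3 it was -39.5 (exact p = 0.213). With equal numbers of top-scoring peaks from each library it was -7.16 (exact p = 0.837). The 10 min libraries, at 316, 310 and 270 (mean 299 ± 25.3, SD, n = 3), did not overlap sham, with an exact p of 0.1, the smallest that 3 against 3 allows. Their difference from sham was -68.8, against -31 with equal numbers of peaks (exact p = 0.5) and -48.9 with no flank around the genes (exact p = 0.2). With scores of at least 100, MI was 74 bases per Mb above sham (exact p = 0.471).

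Whether the strength of the stable peaks moved was asked with ranks. In each library the 7741 regions called in all 18 libraries were ranked by score, from 0 to 100, and the ranks were fitted with limma over 6 group means. Across all those regions 0% were called at an adjusted p under 0.05 for MI against sham and at each time but 24 h, where 0.0258% were. Unadjusted limma p-values under 0.05 were found for 373 of the 7741 regions (4.82%) for MI against sham. The Zrsr1 and Inpp5f regions were the members of the set from these genes, and neither had an adjusted or an unadjusted p under 0.05 in any comparison.

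The Zrsr1 ranks were 48.1, 7.35 and 62.6 in sham, 38.3, 14.6 and 35.5 at 10 min, and 40.2, 33.2 and 61.1 at 1 h. The 6 h ranks were 7.84, 68.8 and 50.8. The 24 h ranks were 39.7, 52.4 and 53.3, followed by 59.1, 48.4 and 54.8 in the 72 h group. The sham ranks spanned almost the whole range of the MI ranks. MI was 4.53 percentile points above sham (SE 11.9, 95% interval -20.8 to 29.8, limma adjusted p = 0.986). The differences at single times ran from -9.86 at 10 min to 14.8 at 72 h, each with an SE of 15.3. Without sham replicate 2, the library with the lowest Zrsr1 rank, the limma difference was -11.5, so 1 library set the direction.

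The Inpp5f ranks were 49.4, 5.93 and 33.4 in sham, 14, 19.2 and 42.4 at 10 min, and 14.8, 14.4 and 22.4 at 1 h. The 6 h group had 44.2, 49.1 and 59.4. The 24 h group had 87.6, 15.9 and 11.1, and the 72 h group 53.3, 50.9 and 45.8. The 1 h ranks were low and the 6 h and 72 h ranks high, and each of these groups overlapped sham. MI was 6.75 points above sham (SE 12.7, 95% interval -20.3 to 33.8, limma adjusted p = 0.983). Single times ran from -12.4 at 1 h (adjusted p = 0.997) to 21.4 at 6 h (adjusted p = 0.958), with an SE of 16.4. Without sham replicate 2 the difference for MI was -5.06. At both genes the intervals allow a shift of 20 points or more in either direction.

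**Figure D5:**
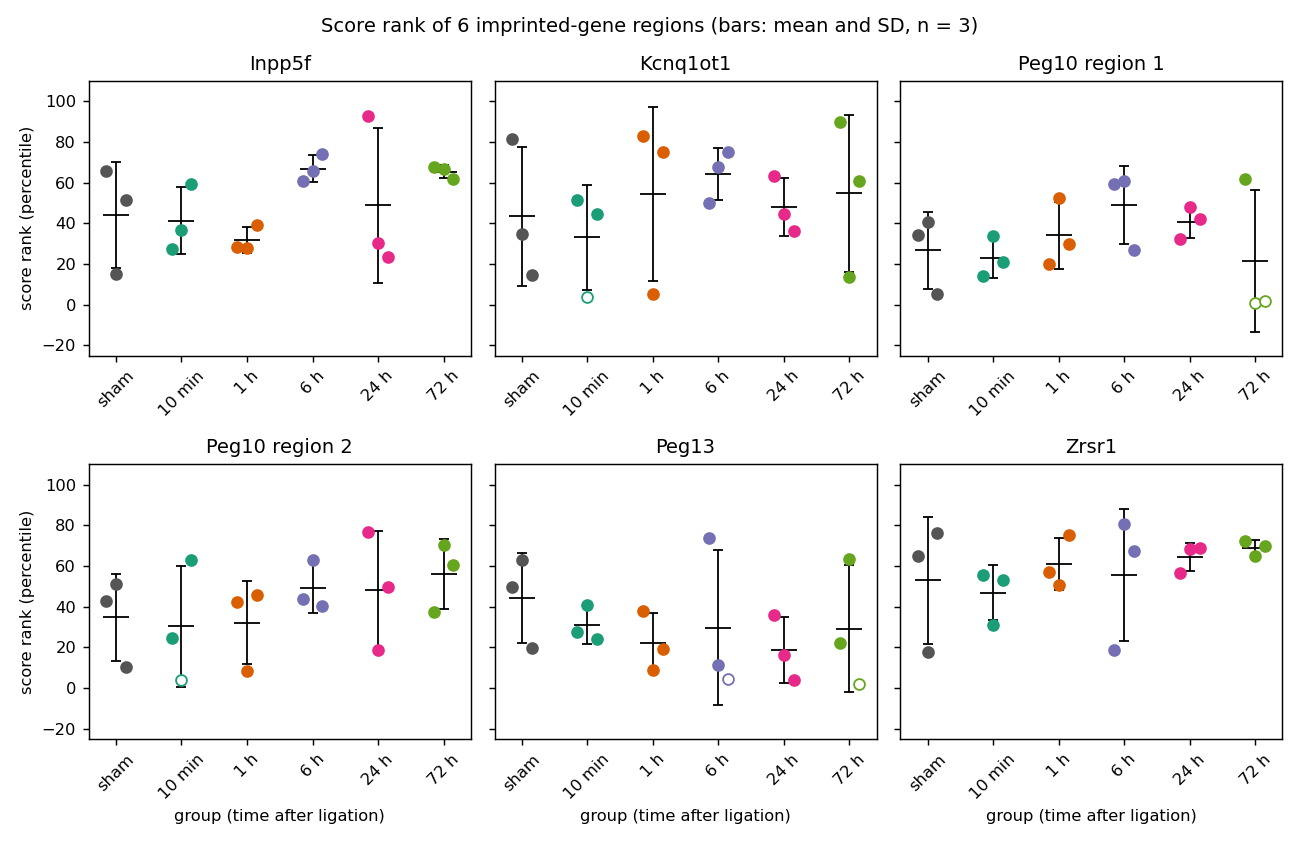
Score rank (percentile, vertical axis) of 6 imprinted-gene regions in each library, by group (horizontal axis), among the 13999 regions called in at least 16 libraries, with the mean and SD of 3 libraries. Open circles are libraries without a peak, placed at the tied lowest rank. The span of every group overlaps the wide sham range. The Peg13 libraries at 6 h lie above and below that range with none inside it. So do those at 72 h for the Peg10 region next to Sgce.

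A wider set, added after the data were seen, ranked the 13999 regions called in at least 16 libraries and gave libraries without a peak the tied lowest rank. It took in the regions of Kcnq1ot1, Peg13 and Peg10. The Peg13 rank was 44.1 ± 22.2 (SD, n = 3) in sham and 26 ± 21.3 (SD, n = 15) in MI, a difference of -18 points (SE 14.3, 95% interval -48.5 to 12.4, limma adjusted p = 0.988). The 6 h replicate 1 and 72 h replicate 2 libraries, at 73.5 and 63.4, were above the highest sham library, at 62.8. The Kcnq1ot1 difference was 7.4 points (SE 17.7), that of the Peg10 region next to Sgce 7 (SE 12.1) and that of the Peg10 gene-body region 8.5 (SE 13.5). At 72 h the Peg10 region next to Sgce had ranks of 61.8, 0.714 and 2, the last pair being the libraries without a peak, and the difference from sham was -5.24 points (SE 15.7). None of the 6 regions had an adjusted or unadjusted p under 0.05 in any of the 6 comparisons. Over the whole set, 0% of regions were called at an adjusted p under 0.05 except at 24 h, with 0.00714%. A p that misses the threshold does not show that the ranks were equal.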

How the data were processed

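DNA from 18 mice was profiled by MeDIP-seq, 1 library a mouse. Bowtie2, MACS2 and mm10 (GRCm38) are named in the submitters' processing notes; their versions, options and any use of an input library are not given in the sources used here. The authors deposited 1 peak list per library with a score for each peak, of at least 50; read depth is unknown, so list length (34255 to 60653 peaks) stands beside the results.

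The 10 genes and the comparison lists were chosen with earlier results of these data known. All 10 genes are named. Regions were merged at 1 base of overlap; a gene's lead region is the one called in most libraries, ties going to the higher list percentile; other regions are named at 9 or more libraries or when gained or lost, and the weaker ones were named after their values were seen. Gene spans and promoters came from RefSeq tables of GRCm38.p6. Tests were limma 3.58.1 (R 4.3.3) on score ranks with Benjamini-Hochberg adjustment, and two-sided exact permutation tests over libraries (Python 3.11.15, scipy 1.17.1). The limma step was tested on simulated data. 15 against 3 libraries allows no p below 0.00123. Alternatives were other score thresholds, equal list lengths, 50% coverage, no flank, other score scales, a replicate block and leaving out each library.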

Additional observations from a re-analysis of the deposited data

Results flagged for a closer look

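A few time points lay on opposite sides of the sham mean in score rank. Every library of one time point was above it and every library of the other below it. None of these differences was itself tested. How many of all 7741 ranked regions show such a split was not counted, so it is not known to be particular to these genes. At Zrsr1 all 3 libraries at 24 h were above the sham mean of 39.3 percentile points and all 3 at 10 min below it, with means of 48.5 and 29.5 and a difference of 19 points. The split was narrow, since 24 h replicate 1 stood at 39.7 and 10 min replicate 1 at 38.3. The 72 h libraries of Zrsr1 were also all above the sham mean, with a mean of 54.1, which is 24.6 points above 10 min. At Inpp5f all 3 libraries at 6 h were above the sham mean of 29.6 and all 3 at 1 h below it, with means of 50.9 and 17.2 and a difference of 33.8 points. The 72 h libraries of Inpp5f, with a mean of 50, were all above it, 32.8 points above 1 h. The sham ranks themselves ran from 7.35 to 62.6 at Zrsr1 and from 5.93 to 49.4 at Inpp5f, and the lowest of both was sham replicate 2.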

How the results depend on the processing

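The peak lists carry no read counts, so depth limits each result in a way that cannot be put as an interval. Lost regions at 10 min and at 6 h fell from 1 to 0 with scores of at least 100, equal list lengths or 50% coverage. Differences from sham in lead-region genes became, with scores of at least 100, 0 for MI, 0.667 at 6 h and 1.33 at 72 h, and with equal list lengths 0 at 6 h. For start regions the MI difference was -1.2 (exact permutation p = 0.0245), and with 50% coverage it was -1.27 (exact permutation p = 0.0882). For start regions with equal list lengths, an alternative chosen after seeing the data, it was 0 for MI, 6 h and 24 h and 0.667 at 72 h; with scores of at least 100 it was 0.4 for MI, 0 at 1 h, 0.667 at 6 h and 24 h and 1 at 72 h. Covered bases per Mb, with scores of at least 100, differed by 74 for MI and by 31.1 (1 h), 195 (6 h), 74.3 (24 h) and 138 (72 h), and with equal list lengths by 10.3 at 24 h and 8.88 at 72 h. With percentiles in the whole list, Zrsr1 at 6 h was -6.01 and Inpp5f at 24 h -2.33. The cause of these changes was not tested.

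Leaving out 1 library gave lead-region differences of -2 to -1 for MI, -2.33 to -1.33 at 10 min and at 1 h, -2 to -0.833 at 6 h and at 72 h, and -1.33 to -0.333 at 24 h. Start-region differences for MI ran from -1.29 to -1.14, with unadjusted exact permutation p from 0.00588 to 0.0441. Covered bases ran from -63.1 to -39.5 for MI. Lost regions ran from 0 to 1 for MI (1 without sham replicate 1 or 3) and at 1 h (1 without sham replicate 1 or 3 or 1 h replicate 2 or 3), from 1 to 2 at 10 min (2 without sham replicate 3 or 10 min replicate 1) and at 6 h (2 without sham replicate 1 or 3 or 6 h replicate 3), and from 0 to 2 at 24 h (2 without 24 h replicate 2, 1 without sham replicate 1 or 3) and at 72 h (2 without sham replicate 3, 1 without sham replicate 1 or 72 h replicate 1). Gained regions ran from 0 to 1 at 72 h (1 without 72 h replicate 2). With fewer libraries the rule needs fewer peaks. Score-rank ranges were, for Zrsr1, -11.5 to 16.1 (MI), -25.9 to 1.75 (10 min), -10.5 to 17.1 (1 h), -12.9 to 20.5 (6 h), -6.88 to 20.7 (24 h) and -1.24 to 26.4 (72 h), and for Inpp5f -5.06 to 16.7 (MI), -16.1 to 5.57 (10 min) and -16.1 to 22.2 (24 h); Inpp5f kept its sign at 1 h, 6 h and 72 h.

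The sample titles give replicate numbers but do not say whether equal numbers pair the libraries. Deviations of score rank in libraries with the same number had a mean correlation of 0.00514 over 45 pairs. For the 90 pairs with different numbers the mean was -0.00257. For 8 of 18 libraries, the mean correlation was highest with the libraries of their own number. With the replicate block, 0 regions of the 10 genes were called, and the difference for MI was 4.53 (SE 11.6) at Zrsr1 and 6.75 (SE 12.5) at Inpp5f.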

Other observations

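Other imprinted loci were set beside the 10 genes, by their most widely called region over the same kind of window. Of 6 other loci with a maternal germline mark, none had a region called in all 18 libraries. Snrpn, of a cluster expressed in brain, reached 16 libraries and Airn, the noncoding RNA that silences Igf2r in cis, 15. The counted region can lie anywhere in the window, and the positions of the control regions were not used. Listed starts were called in at most 1 library at Snrpn and 4 at Airn. Slc38a4 reached 12, Gnas 11, Plagl1 10 and Grb10 7. Of 3 loci with a paternal germline mark, H19 had no region in its window, Meg3 reached 9 libraries and Rasgrf1 17. The counted regions of Meg3 and Rasgrf1 touched the gene body. Whether any of the 3 windows holds the paternal control region was not checked, so these counts are not known to concern the mark itself. Listed starts of the maternal loci were called in 9 libraries at most (Slc38a4), and those of Meg3 and Rasgrf1 in 0. Many of these windows are far longer than those of the 10 genes, so the counts are given as values.

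The host genes shared regions with the genes inside them. The lead regions of Commd1 and Kcnq1 were those of Zrsr1 and Kcnq1ot1, and the lead regions of H13 and Blcap were those of Mcts2 and Nnat, in 4 and 3 libraries. Trappc9 had a lead region of its own at chr15:73057580-73058765, called in 18 libraries with a median score of 193, far from Peg13. Herc3 had one in 12 libraries away from Nap1l5, and Sgce one in 17 libraries away from Peg10.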
